A study of Mus musculus with 12 samples.

Results

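The step from stage VII to stages VIII-IX of the mouse seminiferous epithelium was described from 4 of the 12 arrays of a series on synchronized adult testes. The members are the 2 samples labelled Stage VII and the 2 labelled Stages VIII - IX, taken by their labels, and all 19946 genes measured with a single-symbol probe set were compared between them. Both groups are whole testes of adult males of a mixed 129/C57BL6 background. All animals of the series, these included, were given WIN 18,446, an inhibitor of retinoic acid synthesis, on 7 days, from day 2 to day 8 after birth, at a dose of 100 ug per gram. Each then received 200 ug of retinoic acid (RA) on day 9, and testes were collected after 43 to 49 days of recovery and staged by their morphology. Total RNA was amplified from 100 ng, and 3.75 ug of the cDNA was labelled for each array. No unsynchronized testes were among the samples, and the labels do not give the recovery time of each group. They also do not state that the 2 samples of a group came from different animals. The spread behind each p-value is therefore that of the deposited samples alone and could be technical.

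Spermatogenesis advances along the tubule in a repeating series of stages, each a fixed association of germ cells held by Sertoli cells. At the end of stage VIII the finished spermatids are released into the lumen, and Sertoli cells take up and digest the cytoplasm they shed, the residual bodies. In the same window preleptotene spermatocytes enter meiosis and are moved through the blood-testis barrier, the Sertoli tight junctions that open above them and are rebuilt below. RA is known to drive both spermatogonial differentiation and meiotic entry, and its synthesis and breakdown in the epithelium vary with the stage. Round spermatids become elongating spermatids from stage IX on. Each of these events alters which cells and transcripts a whole testis holds, so a bulk array reads them together. Fewer cells of a type and less RNA per cell cannot be told apart in these samples.

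Of 19946 genes, 453 were higher in VIII-IX than in VII and 331 were lower at an adjusted p under 0.05, by limma across all 12 arrays with Benjamini-Hochberg adjustment. These are 3.93% of the genes tested, 2.27% higher and 1.66% lower. The counts of called genes in each list below are to be read beside these shares. A difference of at least 2-fold was reached by 138 of the higher and 128 of the lower genes, and one of at least 4-fold by 10 and 34. The adjusted p-values of the 784 genes lay between 0.0117 and 0.04997, and those of the lower genes alone between 0.0429 and 0.0499. Of the other 5 steps around the cycle, the one from IX-XI to XII-I had 2386 calls. The remaining 4 had 0 calls by limma, with between 925 and 1980 genes at an unadjusted p under 0.05 against 5048 at this step. Neighbouring steps share samples.

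Some arrays stood apart. On the sample labelled Stage VII sample 2, 58 genes lay more than 1 log2 unit above all 11 other arrays, and no other array had such a gene. More than 1 log2 unit below all others lay 11 genes on XII-I sample 1, 6 on VIII-IX sample 2 and 1 on IV-VI sample 1. XII-I sample 1 also had the lowest correlation with its nearest array, 0.9877 over all genes, against 0.99 for VII sample 2 and 0.9952 for VIII-IX sample 2. Timp1, an inhibitor of matrix metalloproteases, was named after its values were seen. Its log2 intensity lay between 7.60 and 7.89 on the 11 other arrays and at 11.27 on VII sample 2. Without this sample 0 genes passed the threshold by limma, with 3565 at an unadjusted p under 0.05 and a smallest adjusted p of 0.174. The median difference of the 784 genes was 0.82 log2 units in size with both VII samples and 0.78 with VII sample 1 alone. The calls depended on other arrays as well. Those of the lower genes were lost without VIII-IX sample 2, and leaving out VII sample 1 changed which genes were called. Leaving out VIII-IX sample 1 or either IV-VI sample left 0 calls, VIII-IX sample 2 left 20, either IX-XI sample left 37, and VII sample 1 left 1015. Differences without VII sample 2 are therefore given as well, and no gene named here passed the threshold without it. The samples of the groups do not overlap in any of the 784 genes, so leaving out an array cannot turn their direction.

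The largest fall was that of Spam1 (probe set 10536729), which encodes the hyaluronidase PH-20 of the sperm surface. Its level was 11.13 and 10.76 log2 units in VII samples 1 and 2, and 7.76 and 6.41 in VIII-IX samples 1 and 2. The groups lay far apart, and the 2 VIII-IX samples differed more from each other than the 2 VII samples did. The difference was -3.86 log2 units, with a standard error of 0.695, 14.5-fold, at an adjusted p of 0.043, and -4.04 without VII sample 2. Aqp8 (probe set 10557300), a water channel known from Sertoli cells, had 10.76 and 10.90 in VII and 7.96 and 7.13 in VIII-IX. It fell by 3.28 log2 units with a standard error of 0.555, 9.71-fold, and the difference was -3.21 without VII sample 2.

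Serpina3a, of the serine protease inhibitor family, fell 9.34-fold, from 10.77 and 10.35 to 7.90 and 6.78. Tssk5, of the testis-specific serine kinase family, fell 8.56-fold, from 10.83 and 10.19 to 7.56 and 7.27. Fer1l5, of the ferlins, membrane proteins with calcium-binding domains, fell 8.45-fold, from 11.30 and 10.63 to 8.46 and 7.32. The fall of Atp10a, a phospholipid flippase, was 8.37-fold, from 11.40 and 11.07 to 8.41 and 7.93. Plin2, which coats lipid droplets, had 11.86 and 11.69 in VII and 9.65 and 8.58 in VIII-IX, a fall of 6.30-fold. In each of these 5 genes both VIII-IX samples lay at least 2 log2 units under both VII samples. With VII sample 1 alone their differences were -3.44, -3.42, -3.41, -3.23 and -2.74 in the same order. Mroh9 fell 8.38-fold, Tmem243 5.68-fold, and the transcripts named as pseudogenes Ppp4r3c-ps and Phf8-ps 7.99-fold and 6.30-fold. With VII sample 2 left out, the differences of these 4 were -3.23, -2.58, -3.23 and -2.79. The probe sets of these pseudogenes can read their parent genes. Fam186a fell 8.82-fold by its brighter probe set (-3.14 log2 units, and -3.47 without VII sample 2), while a dimmer probe set of the same gene gave -0.82.

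The largest rise was that of Pou5f2 (probe set 10406399), a POU domain transcription factor of male germ cells. It stood at 8.31 and 8.41 in VII samples 1 and 2 and at 10.88 and 11.10 in VIII-IX. The difference was 2.63 log2 units with a standard error of 0.48, 6.20-fold, at an adjusted p of 0.043, and it was 2.68 without VII sample 2. Klk1b5, of the kallikrein proteases, rose 5.52-fold, from 6.76 and 6.65 to 9.20 and 9.14. Defb33, a beta-defensin, rose 5.21-fold, from 9.45 and 9.16 to 11.69 and 11.68. The spread within each group was small beside these differences. Klk1b5 and Defb33 belong to families of closely related copies, so their probe sets may read more than 1 gene.

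Odf3b, related to the outer dense fibres of the sperm tail, had 9.41 and 9.13 in VII and 11.55 and 11.36 in VIII-IX, a rise of 4.55-fold. Kcnab3, an accessory subunit of voltage-gated potassium channels, had the smallest unadjusted p among these 12 genes and rose 4.11-fold, from 8.41 and 8.01 to 10.48 and 10.02. Efcab8 and Efcab1, both with EF-hand calcium-binding domains, rose 4.04-fold and 3.40-fold. Gramd2 rose 4.63-fold, Hmgb1-rs17, a related sequence of the chromatin protein gene Hmgb1, 4.22-fold, the zinc finger gene Zbtb42 3.71-fold, and the testis genes Tex46 and Spata32 3.61-fold and 3.60-fold. Without VII sample 2 the differences of these 12 genes ran from 1.44 (Efcab1) to 2.68 log2 units (Pou5f2).

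**Figure D1:**
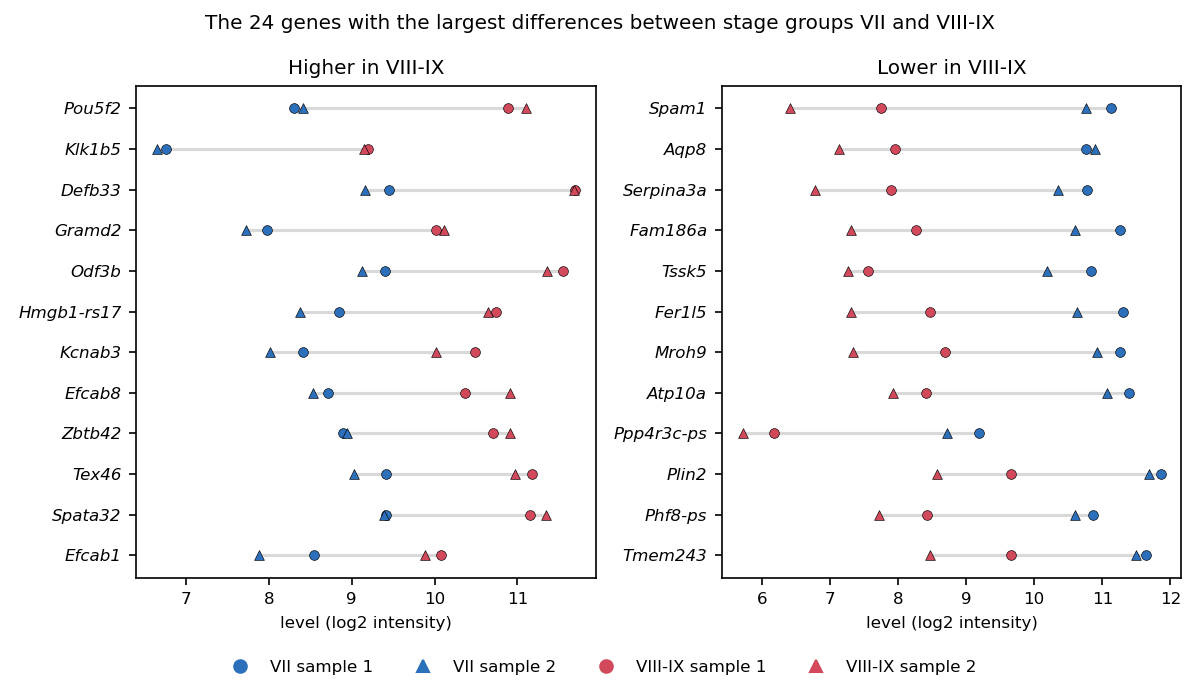
Log2 intensity (x axis) of the 12 genes with the largest rise and the 12 with the largest fall from VII to VIII-IX. Predicted genes, chemoreceptors and small RNAs were passed over. Each row is 1 gene, with circles for sample 1 and triangles for sample 2 of each group. The groups do not overlap in any row, since only such genes were taken. Among the falling genes VIII-IX sample 2 is the lower of its pair each time.

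The 784 genes were not at the peak and trough of 1 step alone. Of the 453 higher genes, 319 had their highest group mean in VIII-IX and 103 in XII-I, while 239 had their lowest in IV-VI and 163 in VII. Of the 331 lower genes, 301 had their lowest mean in VIII-IX, and their highest lay in IV-VI for 191, in VII for 80 and in II-IV for 58. The VII mean was closer to the IV-VI mean than to the VIII-IX mean in 452 of the 453 and in all 331. The IX-XI mean was closer to VIII-IX than to VII in 426 and 291. Across the lower genes the median level was 10.03 in IV-VI, 9.83 in VII, 8.82 in VIII-IX and 9.15 in IX-XI. These patterns are descriptions, since the genes were chosen by the same VII and VIII-IX samples.

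Genes of meiotic entry were called in both directions. Of 38 measured genes of this list, 2 were higher and 1 was lower. Dmc1 (probe set 10430555), the recombinase that pairs homologous DNA strands, had 8.40 and 8.57 in VII and 9.74 and 9.81 in VIII-IX. It rose 2.45-fold, by 1.29 log2 units with a standard error of 0.21, and by 1.38 without VII sample 2. Rad21l, a subunit of meiotic cohesin, rose 2.37-fold, from 6.96 and 7.14 to 8.49 and 8.10, and its other probe set gave 1.27 log2 units against 1.24. With VII sample 1 alone its difference was 1.33. Rec8, another meiotic cohesin subunit, fell 3.36-fold, from 10.76 and 10.44 to 9.20 and 8.51, and by 1.91 log2 units without VII sample 2. Samples of the groups did not overlap in 33 of the 38 genes, 19 higher (50%) and 14 lower (36.8%). Over all genes the shares were 28% higher and 21.8% lower. The list's median difference was 0.09 log2 units, against 0.00718 over all genes, and 0.0531 without VII sample 2.

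Stra8 (probe set 10537231), which RA induces and which is required for meiotic entry, did not pass the threshold at this step. Its level was 7.58 and 8.05 in VII and 8.47 and 8.31 in VIII-IX, a difference of 0.58 with a standard error of 0.19 and an adjusted p of 0.099. Without VII sample 2, the higher of its pair, the difference was 0.81. Its group means were 7.09 in IV-VI, 7.81 in VII, 8.39 in VIII-IX and 8.40 in IX-XI, so the highest levels lay after VII. Prdm9, which marks recombination hotspots, had 7.89 and 7.99 in VII and 8.65 and 8.47 in VIII-IX (adjusted p 0.089), and was named after its values were seen. Sycp1 and Spo11, of the synaptonemal complex and of double strand break formation, differed by -0.39 and 0.32 log2 units, with adjusted p-values of 0.26 and 0.13. Spo11 was likewise chosen after its values were seen. With VII sample 2 left out, the differences of Prdm9, Sycp1 and Spo11 were 0.67, -0.47 and 0.23.

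Among 33 measured genes of retinoid metabolism and response, 1 was higher and 0 were lower by limma. Of the 33, 13 had an unadjusted p under 0.05 (5048 of 19946 over all genes). The gene called was Cyp26a1 (probe set 10462853), an enzyme that breaks down RA and is itself induced by it. It had 6.41 and 6.38 in VII and 7.29 and 6.93 in VIII-IX, a rise of 0.71 log2 units with a standard error of 0.15 and an adjusted p of 0.047, and of 0.70 without VII sample 2. Its mean was lower in each of the other 5 groups, between 6.25 in IV-VI and 6.84 in IX-XI. The call was not made under repeated quantile normalization or with array weights. Leaving out the dimmest 30% of genes removed Cyp26a1 itself, so it was not tested in that setting. In the other settings that used all 12 arrays the list had 1 or 2 higher genes. The promoters of Cyp26a1 and Stra8 are shown because both genes are known RA targets, and that of Pou5f1, picked after its values and matches were seen, because it rose at this step and holds AGGTCA as Stra8 does. They are the 250 bases before the start in RefSeq, build GRCm38.p6, from chr19:37697558-37697807 (Cyp26a1), chr6:34920698-34920947 (Stra8) and chr17:35505782-35506031 (Pou5f1, the first of 2 listed starts), all on the plus strand and written 5′ to 3′. Capitals mark matches on either strand to the hexamers AGGTCA and AGTTCA, which RA receptors bind, to a pair of them in 1 direction with 5 bases between, and, once in Cyp26a1, to AACNGTTA, the letters of an A-MYB site.
Cyp26a1: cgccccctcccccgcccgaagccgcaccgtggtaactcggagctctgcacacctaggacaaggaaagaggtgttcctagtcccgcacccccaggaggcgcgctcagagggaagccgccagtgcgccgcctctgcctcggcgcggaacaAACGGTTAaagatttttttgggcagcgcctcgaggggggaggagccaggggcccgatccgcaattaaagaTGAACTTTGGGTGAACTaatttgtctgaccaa
Stra8: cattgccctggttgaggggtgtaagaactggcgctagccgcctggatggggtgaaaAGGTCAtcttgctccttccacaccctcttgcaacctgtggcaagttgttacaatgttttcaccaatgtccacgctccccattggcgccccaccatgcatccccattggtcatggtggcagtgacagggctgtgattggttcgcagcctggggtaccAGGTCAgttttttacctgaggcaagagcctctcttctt
Pou5f1: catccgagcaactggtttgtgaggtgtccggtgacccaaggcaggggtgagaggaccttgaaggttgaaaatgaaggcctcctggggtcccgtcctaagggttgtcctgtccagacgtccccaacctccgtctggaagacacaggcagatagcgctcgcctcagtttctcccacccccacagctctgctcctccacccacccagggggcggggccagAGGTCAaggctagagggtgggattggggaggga
In Cyp26a1 the pair is of AGTTCA and spans positions -32 to -16 from the start, read on the minus strand. Such a pair was found in 3 of 15619 promoters of measured genes (0.0192%), the others being Ppbp and Tnfsf13b, whose differences at this step were -0.04 and -0.02 log2 units. Stra8 holds AGGTCA at -194 and at -38, and Pou5f1 at -33. Single hexamers are common: AGGTCA occurred in 12.2% of all promoters, 13% of those of the higher genes and 12.6% of those of the lower genes, and AGTTCA in 10.4%, 9.24% and 10.3%. The other letters searched on both strands were pairs of the hexamers with 2 bases between (0.0128% of all promoters), TGACGTCA (2.12%), TGACGTAA (0.538%) and AACNGTTA (0.948%). In the same order their shares were 0%, 0.815%, 0.815% and 1.63% among the higher genes. Among the lower genes they were 0%, 2.3%, 0.383% and 1.15%. Each of these shares rests on at most 6 promoters. A match of letters is a description and not a binding site.

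The enzymes that make RA did not pass the threshold. Rdh10, which oxidizes retinol to retinal, had 10.39 and 10.27 in VII and 11.39 and 11.14 in VIII-IX, a difference of 0.93 at an adjusted p of 0.10, and of 0.87 without VII sample 2. Its mean was 9.29 in IV-VI and 11.38 in IX-XI. Aldh1a1 and Aldh1a2, which oxidize retinal to RA, differed by -0.54 and 0.22. Aldh1a1 was at 12.46 on VII sample 2 and at 11.78 on VII sample 1, and its difference without VII sample 2 was -0.20. Lrat, which esterifies retinol for storage, had -0.60, and Stra6, the retinol importer, -0.11. The nuclear receptor Rxrg had 6.96 and 6.90 in VII and 8.04 and 7.79 in VIII-IX (adjusted p 0.057), and the alcohol dehydrogenase Adh7 had 9.36 and 8.87 against 7.80 and 8.07 (adjusted p 0.060). Without VII sample 2 the differences were 0.25 for Aldh1a2, -0.72 for Lrat, 0.24 for Stra6, 0.95 for Rxrg and -1.42 for Adh7, so that of Stra6 changed sign. Apart from Rdh10 and Stra6, these genes were chosen after their values were seen. The list's median was 0.0285 log2 units with both VII samples and 0.115 without VII sample 2.

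Of 25 genes of undifferentiated spermatogonia, the stem and progenitor cells, 2 were higher and 0 lower by limma. Of the 25, 4 had an unadjusted p under 0.05 (5048 of 19946 over all genes). Lhx1, a LIM homeobox transcription factor, rose 1.91-fold, from 7.27 and 7.20 to 8.16 and 8.18, with a difference of 0.94 log2 units at an adjusted p of 0.032 and of 0.90 without VII sample 2. Pou5f1, the pluripotency factor OCT4, rose 2.01-fold, from 7.47 and 7.36 to 8.81 and 8.03, and by 0.96 log2 units without VII sample 2, and its probe set may read related copies. Zbtb16 (PLZF) and Gfra1, the defining markers of these cells, differed by -0.16 and 0.09 log2 units, with adjusted p-values of 0.34 and 0.63, and by -0.12 and -0.01 without VII sample 2. Samples overlapped in 16 of the 25 genes, and in 9999 of the 19946 over all genes. For the whole list the median was 0.0414, and 0.00346 without VII sample 2. Of 20 genes of differentiating spermatogonia, Prss50, a testis protease, rose by 0.88 and Ccnd1, cyclin D1 of the G1 phase, fell by 0.65. With VII sample 1 alone these were 0.96 and -0.67. Kit, the receptor that marks these cells, had 9.06 and 9.18 in VII and 8.87 and 8.64 in VIII-IX (adjusted p 0.12), a difference of -0.36, and of -0.30 without VII sample 2. The list's median was -0.187, and -0.0781 without it.

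Among 38 genes of DNA replication, 0 were higher and 1 was lower. Pole2, a subunit of DNA polymerase epsilon, fell by 0.66 log2 units, from 7.81 and 7.75 to 7.23 and 7.02, and by 0.69 without VII sample 2. Mcm2 and Mcm3 of the replicative helicase differed by -0.38 and -0.57 at adjusted p-values of 0.064 and 0.12, and by -0.34 and -0.71 without VII sample 2. The list's median of 0.0176 turned to -0.0382 without that sample. Of 30 pachytene and diplotene spermatocyte genes, 0 were higher and 1, Cdc25c, a phosphatase that activates the mitotic kinase, was lower. It fell by 0.82, from 9.89 and 9.52 to 8.99 and 8.77, and by 1.01 without VII sample 2. Samples did not overlap in 15 of these 30 genes upwards (50%) and in 3 downwards (10%), beside 28% and 21.8% over all genes. Their median was 0.122, and 0.0949 without VII sample 2. Ccnb3, a cyclin of germ cells, had 6.61 and 6.72 in VII against 8.28 and 8.69 in VIII-IX, a difference of 1.82 that missed the threshold with an adjusted p of 0.052. The kinase gene Aurka had 10.26 and 10.24 against 11.23 and 11.58 (adjusted p 0.062). Both were named after their values were seen, and without VII sample 2 their differences were 1.88 and 1.15.

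**Figure D2:**
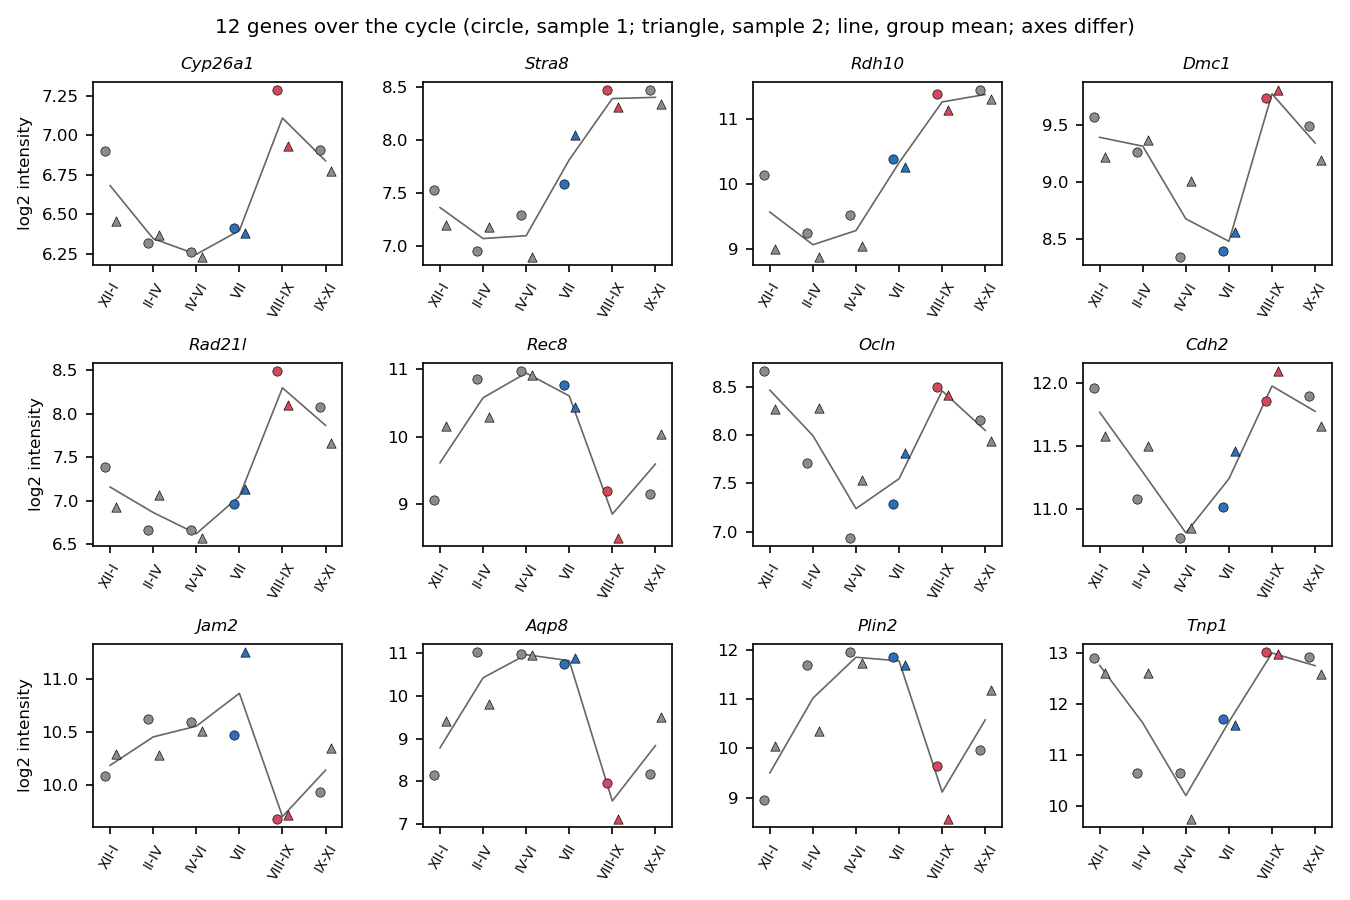
Log2 intensity (y axis, with its own range in each panel) of 12 genes over the 6 stage groups in the order of the cycle (x axis), with circles for sample 1, triangles for sample 2 and a line through the group means. VII is blue and VIII-IX red. Cyp26a1, Dmc1 and Rad21l have their highest mean in VIII-IX, while Rec8, Aqp8, Jam2 and Plin2 have their lowest there. VII sample 2 lies above VII sample 1 in Jam2, at 11.25 against 10.47.

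Tight junction genes of the blood-testis barrier gave 0 higher and 1 lower call among 31 measured. Jam2, a junctional adhesion molecule, had 10.47 and 11.25 in VII and 9.68 and 9.72 in VIII-IX. It fell by 1.16 log2 units at an adjusted p of 0.045, and by 0.77 without VII sample 2, which was the higher sample of its pair. Ocln (occludin) stood at 7.28 and 7.81 in VII and at 8.49 and 8.42 in VIII-IX, a difference of 0.91 at an adjusted p of 0.073. The claudins Cldn13 and Cldn3 had differences of 0.89 and 0.45 at adjusted p-values of 0.073 and 0.13. Cldn11, the main claudin of Sertoli cells, had 11.12 and 11.85 in VII and 11.17 and 11.03 in VIII-IX, and without VII sample 2 its difference was -0.02. Tjp1, the scaffold ZO-1, differed by -0.37 (adjusted p 0.069) and Cldn5 by -0.17. With VII sample 2 left out, the differences were 1.17 for Ocln, 0.74 for Cldn13, 0.36 for Cldn3, -0.34 for Tjp1 and -0.02 for Cldn5. Ocln, Cldn13, Cldn11 and Tjp1 were chosen after their values were seen. The median of the list was -0.102, and -0.0087 without VII sample 2.

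The 39 genes of adherens and gap junctions and of the ectoplasmic specialization, the actin layer that anchors spermatids to Sertoli cells, had 1 call in each direction. Fscn3, the testis fascin that bundles actin, rose by 1.32 log2 units, from 10.83 and 10.17 to 11.81 and 11.83, and by 0.99 without VII sample 2. Ctnnb1, beta-catenin, fell by 0.57, from 11.45 and 11.72 to 11.06 and 10.98, and by 0.43 without VII sample 2. Cdh2, N-cadherin, had 11.02 and 11.46 in VII against 11.85 and 12.10 in VIII-IX (adjusted p 0.065), and Nectin2 had 8.90 and 9.64 against 10.04 and 9.72 (adjusted p 0.16). For Actn1, an actin crosslinker, the values were 9.60 and 9.67 against 8.82 and 8.42 (adjusted p 0.065). Nectin2 and Actn1 were named after their values were seen. Without VII sample 2 the differences were 0.95 for Cdh2, 0.98 for Nectin2 and -0.98 for Actn1, against 0.73, 0.61 and -1.02 with it. The list's median went from -0.0139 to 0.0483. Of 27 genes of the tubulobulbar complex, the structure by which spermatid junctions are taken back before release, Dnm1, the membrane-severing dynamin 1, rose by 0.52, from 9.78 and 9.59 to 10.19 and 10.22. It rose by 0.43 without VII sample 2. Cttn (cortactin), which lines these tubules, had 9.82 and 10.21 in VII and 9.30 and 9.44 in VIII-IX, with an adjusted p of 0.0501, and was likewise named after its values were seen. Its difference was -0.64, and -0.45 without VII sample 2. For the tubulobulbar list the median was -0.193, and -0.0202 without that sample.

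None of the 42 genes of residual body uptake, lysosome and autophagy passed the threshold by limma. An unadjusted p under 0.05 was reached by 14 of them (5048 of 19946 over all genes). The receptors Mertk and Axl, which bind dying cells, differed by -0.31 and 0.08 log2 units, and by 0.02 and 0.39 without VII sample 2. The lysosomal protease gene Ctsd had 10.81 and 11.71 in VII and 10.57 and 10.39 in VIII-IX, and its difference went from -0.78 to -0.33 without that sample. The median of the list was -0.135 and changed sign to 0.0177 without it. On VII sample 2, 35 of the 42 genes lay above VII sample 1 and 20 were the highest of all 12 arrays. Over all 19946 genes these counts were 8932 and 2295.

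The 26 genes of proteases, their inhibitors and matrix also had 0 calls by limma. An unadjusted p under 0.05 was reached by 9 of them (5048 of 19946 over all genes). Samples did not overlap in 11 genes downwards (42.3%) and in 0 upwards, beside 21.8% and 28% over all genes. Their median of -0.342 moved to -0.0399 without VII sample 2. On that sample 24 of the 26 lay above VII sample 1 and 19 were the highest of all arrays, beside 8932 and 2295 of all 19946 genes. Serpina5, an inhibitor of plasminogen activators, had 11.48 and 12.09 in VII and 11.11 and 10.75 in VIII-IX (adjusted p 0.07), a difference of -0.85, and of -0.54 without VII sample 2. Plat, the tissue plasminogen activator, had 8.64 and 9.62 against 9.52 and 9.19, a difference of 0.23 with both VII samples and of 0.72 with VII sample 1 alone. Serpina5 and Ctsd were chosen after their values were seen. With VII sample 2 left out, the medians of the residual body and protease lists lay within 0.04 log2 units of 0.

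General Sertoli genes had 1 higher and 2 lower calls among 39. Jag1, a Notch ligand, rose by 1.24 log2 units, from 9.38 and 9.04 to 10.47 and 10.42, and by 1.06 without VII sample 2. Rhox8, a homeobox gene of Sertoli cells, fell by 0.64, from 9.57 and 9.82 to 9.04 and 9.06, and by 0.52 without that sample. Aqp8 was the other lower gene. The markers Sox9, Wt1 and Gata4 differed by -0.46, -0.11 and -0.23, at adjusted p-values of 0.076, 0.64 and 0.27, and by -0.29, 0.03 and -0.03 without VII sample 2. For the whole list the median was -0.115, and -0.00436 without that sample. Of 24 androgen responsive Sertoli genes, Aqp8 and Gpd1, which links glycolysis to lipid synthesis, were lower and 0 were higher. Gpd1 fell by 1.47, from 10.51 and 10.55 to 9.34 and 8.79, and by 1.44 without VII sample 2. Eppin, a protease inhibitor, had 11.74 and 11.96 against 10.92 and 10.79, just short of the threshold with an adjusted p of 0.052. Its difference was -0.99, and -0.89 without VII sample 2. For the androgen list the median was -0.217, and -0.0545 without that sample. On VII sample 2, 33 of the 39 general and 20 of the 24 androgen responsive genes lay above VII sample 1. Over all genes 8932 of 19946 did.

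Genes of lipid metabolism included 2 lower calls among 30. Beside Plin2, the fatty acid elongase Elovl5 fell by 0.88 log2 units, from 11.66 and 12.01 to 10.99 and 10.91, and by 0.71 without VII sample 2. Hmgcs1 of cholesterol synthesis differed by -0.30 (adjusted p 0.15), and Insig1, which retains the sterol sensor in the endoplasmic reticulum and was named after its values were seen, by 1.06 (adjusted p 0.051). With VII sample 1 alone these were -0.25 and 1.03. Samples did not overlap in 17 of the 30 genes downwards (56.7%) and in 6 upwards (20%), beside 21.8% and 28% over all genes. The median was -0.309, and -0.18 without VII sample 2. Among 19 genes of aquaporins and fluid transport, Aqp9, which passes water and glycerol, moved against Aqp8. It rose by 1.34, from 9.67 and 9.64 to 10.82 and 11.17, and by 1.33 without VII sample 2. The median of this list was 0.0106, and -0.0105 without that sample.

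**Figure D3:**
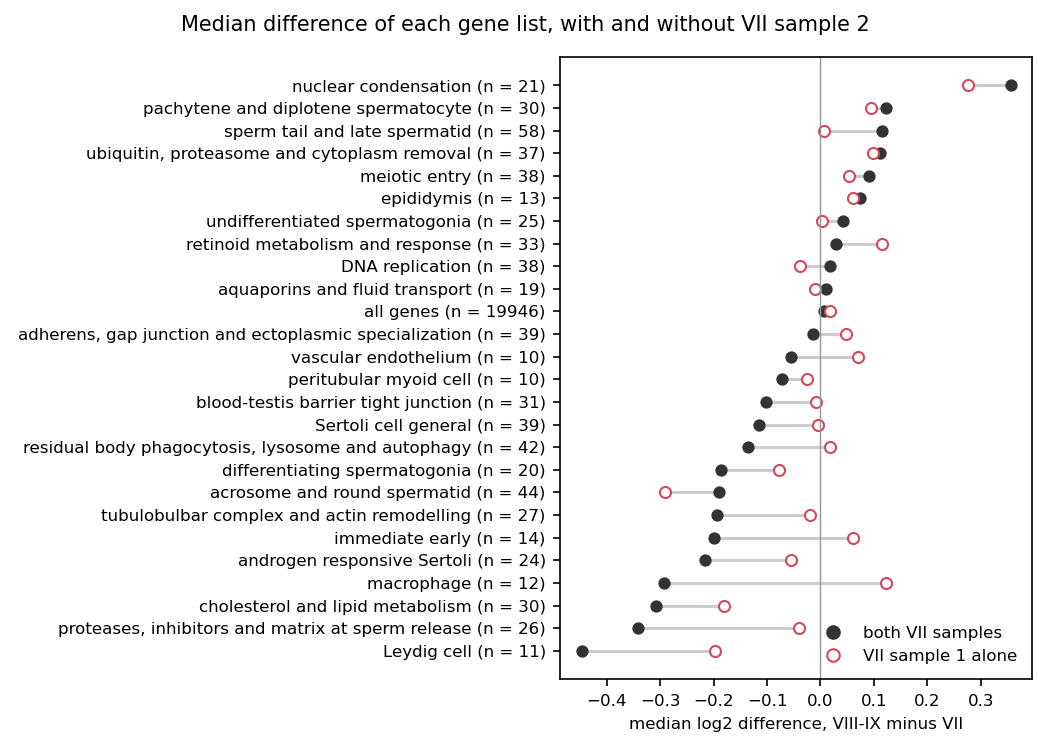
Median log2 difference between VIII-IX and VII (x axis) of 25 gene lists and of all genes, with n the genes measured, for both VII samples (filled) and for VII sample 1 alone (open). The macrophage, immediate early, vascular and residual body medians cross 0 when VII sample 2 is left out, as do the smaller ones of DNA replication, aquaporins and adherens junctions. Nuclear condensation has the highest median in both settings.

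In nuclear condensation histones are replaced by transition proteins and then protamines. Of its 21 genes 0 were higher and 1 lower by limma, and 11 had an unadjusted p under 0.05 (5048 of 19946 over all genes). Samples did not overlap upwards in 14 of the 21 (66.7%) and downwards in 1 (4.76%), beside 28% and 21.8% over all genes. Tnp1, a transition protein, had 11.70 and 11.60 in VII and 13.03 and 12.98 in VIII-IX, a difference of 1.36 with a standard error of 0.525 and an adjusted p of 0.14. Its mean was 10.20 in IV-VI, with 1 sample at 10.65 and the other at 9.74. Tnp2 and the protamine gene Prm1 differed by 0.83 and 0.56, at adjusted p-values of 0.14 and 0.10. With VII sample 2 left out, the differences of Tnp1, Tnp2 and Prm1 were 1.30, 0.81 and 0.61. The gene called was Nutm1, which acts with acetyltransferases on spermatid histones. It fell 4.33-fold, from 10.30 and 9.88 to 8.18 and 7.77, and 5.01-fold without VII sample 2. The list's median was 0.356, and 0.277 without that sample.

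Of 44 acrosome and round spermatid genes, 1 was higher and 1 lower. Catsperd, a subunit of the sperm calcium channel, rose by 0.64 log2 units, from 11.42 and 11.41 to 12.02 and 12.08, and by 0.63 without VII sample 2. Spam1 was the lower gene. Samples did not overlap in 16 genes upwards (36.4%) and 21 downwards (47.7%), beside 28% and 21.8% over all genes. Spaca1, a membrane protein of the acrosome, had 12.21 and 12.02 in VII and 11.17 and 10.23 in VIII-IX (adjusted p 0.082), Acrv1 differed by -0.66 (adjusted p 0.34), and Acr, the acrosomal protease acrosin, by -0.33 (adjusted p 0.062). Without VII sample 2 these 3 differences were -1.52, -0.69 and -0.38. The median was -0.191 and moved to -0.292 without VII sample 2. On VII sample 2, 1 of the 44 genes lay above VII sample 1, beside 8932 of 19946 over all genes.

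The 58 genes of the sperm tail had 3 higher and 3 lower calls. Beside Odf3b, the axonemal dynein heavy chains Dnah17 and Dnah1 rose by 0.64 and 0.60 log2 units, and by 0.59 and 0.55 without VII sample 2. Fsip1, which interacts with the fibrous sheath, fell by 1.92, from 11.14 and 10.96 to 9.32 and 8.94. Spag6 of the central pair of microtubules fell by 1.56, from 12.24 and 12.13 to 10.91 and 10.33, and Tekt4, a tektin filament protein, by 0.86, from 12.92 and 12.76 to 12.17 and 11.80. With VII sample 1 alone these were -2.01, -1.62 and -0.94. Akap14, an anchoring protein for protein kinase A, had 10.05 and 9.79 against 8.58 and 7.61 (adjusted p 0.060), a difference of -1.83, and of -1.96 without VII sample 2. For the tail list the median was 0.116, and 0.00736 without that sample. Among 37 genes of ubiquitin, proteasome and cytoplasm removal, Usp9y, a Y-linked deubiquitinase, rose by 0.62, from 7.40 and 7.18 to 7.96 and 7.87, and by 0.52 without VII sample 2. Spem1, needed to strip the cytoplasm from the sperm head, differed by 0.49 (adjusted p 0.060), and by 0.41 without that sample. For the ubiquitin list the median was 0.111, and 0.098 without it.

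Markers of the other cells in the samples were read beside these results. Of 11 Leydig cell genes, 0 passed the threshold by limma and 6 had an unadjusted p under 0.05 (5048 of 19946 over all genes). Samples did not overlap downwards in 7 of the 11 (63.6%), beside 21.8% over all genes. Their summed intensity was 17940 and 25890 in VII samples 1 and 2 and 14640 and 14500 in VIII-IX. All 11 were higher on VII sample 2 than on VII sample 1, and 10 were the highest of all 12 arrays. Over all 19946 genes these counts were 8932 and 2295. The steroidogenic transport protein gene Star had 10.44 and 10.48 in VII against 9.16 and 9.40 in VIII-IX (adjusted p 0.063), and Cyp11a1 had 11.18 and 12.30 against 10.92 and 10.76. Their differences were -1.18 and -0.90, and -1.17 and -0.34 without VII sample 2. The median of the list was -0.447, and -0.198 without VII sample 2.

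The 12 macrophage genes had 0 calls by limma, with 1 at an unadjusted p under 0.05 (5048 of 19946 over all genes). Their summed intensity was 5838 and 8145 in VII and 6465 and 6696 in VIII-IX, and their median went from -0.293 to 0.123 without VII sample 2. On that sample Cd68 was at 9.20 and Csf1r at 9.18, against 7.96 and 8.24 on VII sample 1. Summed intensities of 10 peritubular myoid genes were 12690 and 13840 in VII and 12720 and 11580 in VIII-IX, and of 10 endothelial genes 2751 and 3132 against 2763 and 2686. The medians of these lists were -0.0727 and -0.0558, and -0.0257 and 0.0708 without VII sample 2. The 13 epididymis genes summed to 1602 and 1467 against 1540 and 1683, with the markers Gpx5 and Adam7 between 5.49 and 5.96 on these 4 arrays. Of the 14 immediate early genes, Ccn1, a matrix signalling protein, fell by 0.88, from 8.87 and 9.03 to 8.12 and 8.01, and by 0.81 without VII sample 2. On that sample 11 of the 14 lay above VII sample 1 and 10 were the highest of all 12 arrays. Over all 19946 genes these counts were 8932 and 2295. The epididymis median was 0.0742 and the immediate early median -0.199, and without that sample they were 0.0606 and 0.0601. None of these markers had an intensity of 0, as RMA gives every probe set a value. Whether other cells took part in the results of the Sertoli, protease and lipid lists was not tested beyond the values without VII sample 2.

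**Figure D4:**
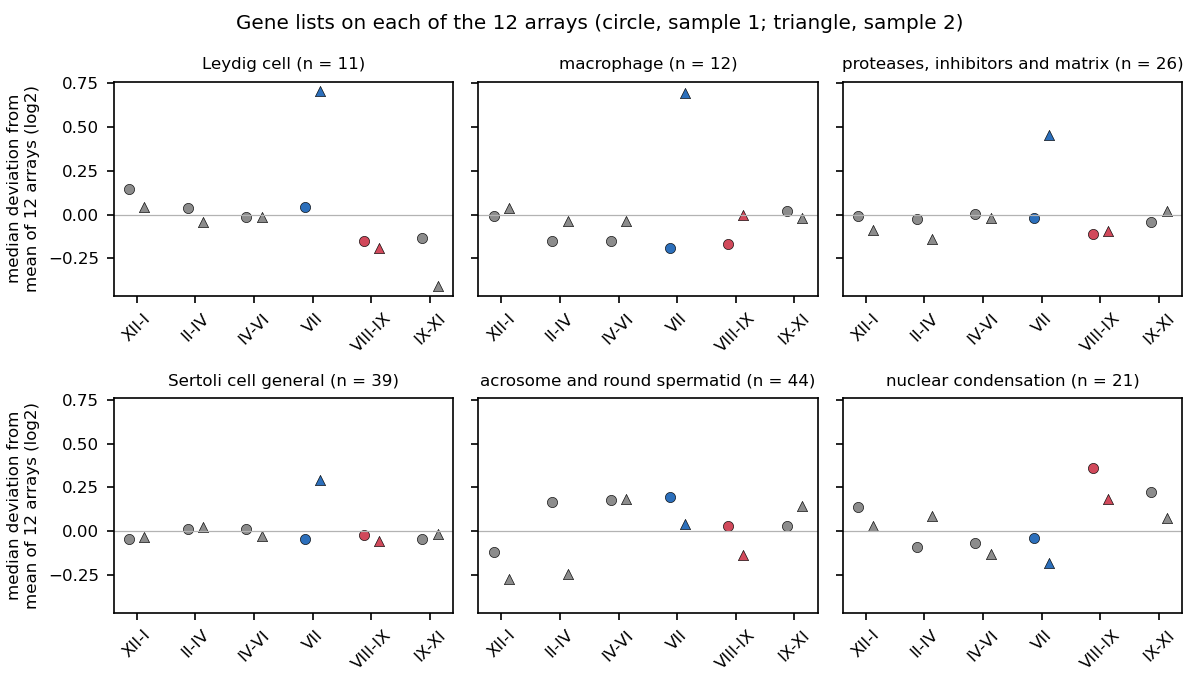
Median deviation of 6 gene lists from the mean of the 12 arrays (y axis, log2) on each array, by stage group (x axis), with circles for sample 1, triangles for sample 2, VII in blue and VIII-IX in red. VII sample 2 stands at 0.705 for Leydig cell, 0.695 for macrophage and 0.457 for protease genes, and VII sample 1 at 0.043, -0.19 and -0.021. For nuclear condensation both VIII-IX samples lie above both VII samples.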

How the data were processed

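The values deposited by the authors are intensities, 1 for each probe set of the Affymetrix Mouse Gene 1.0 ST array. They were made with RMA (background correction, quantile normalization and probe summary), per the submitters' processing notes, and its version was not given in the sources used here. On their linear scale they ran from 24.97 to 21760, with array medians from 296.9 to 309.1. RMA makes array distributions alike, so a change in total RNA cannot be seen. The number of arrays limits the precision.

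From these, log2 values were computed. The array annotation gave a single symbol to 21797 of 28853 probe sets, several to 1613, and did not list 5443. For the 999 genes with more than 1 such set, the one brightest on average was used, which left 19946 genes. Symbols were compared with RefSeq (GRCm38.p6) by Entrez ID, which changed 0, with 99 IDs not found. limma 3.58.1 in R 4.3.3 fitted 6 group means to all 12 arrays (lmFit, eBayes), and the contrast VIII-IX minus VII was adjusted by Benjamini-Hochberg over all genes at 0.05. The fit was tested on simulated data.

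The 26 gene lists hold 747 entries, 51 without a measured gene. The members and lists were chosen with earlier results of these data known, and lists are described by counts and medians beside all genes. The blood list had 2 genes measured and is not described. Named genes are the 12 largest differences in each direction past the threshold with samples that do not overlap. The rule asked that they pass without VII sample 2 too, which 0 genes did, so the largest with all 12 arrays were taken. Predicted genes, chemoreceptors and small RNAs were passed over. List members past the threshold, the first 4 of each list and the listed cell markers may also be named. Of 122 named genes, 90 matched a RefSeq promoter. Alternatives were each array left out, the 4 arrays alone, the replicate number as a block, repeated quantile normalization, median centring, no dimmest 30% of genes, the mean of a gene's probe sets, an intensity trend and array weights.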

Additional observations from a re-analysis of the deposited data

How the results depend on the processing

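The number of calls moved with the setting. Leaving out 1 array at a time gave 0 to 986 higher and 0 to 784 lower genes, 0 to 205 of them at least 2-fold higher and 0 to 226 at least 2-fold lower. The arrays whose loss ended or cut the calls were those of IV-VI, VIII-IX and IX-XI and VII sample 2. Without VII sample 1 the total rose, but fewer genes were higher and many of the 784 called with all arrays were lost. Leaving out either sample of XII-I, II-IV, IV-VI or IX-XI gave the same counts as its partner, since a lone sample carries no spread and is assumed to vary like the others. The 4 arrays alone gave 696 higher and 396 lower genes (227 and 218 at least 2-fold), with 519 of the 784 kept. Array weights gave 11 and 0 (6 and 0 at least 2-fold). Without the dimmest 30% of genes there were 644 and 555, and the trend gave 571 and 439. The share of calls that were higher was 57.8%, 63.7% with the 4 arrays and 27.9% without VII sample 1. With the replicate number as a block there were 184 higher and 76 lower genes (69 and 33 at least 2-fold), 70.8% of them higher. Differences between sample 1 and sample 2 correlated at -0.354 to 0.541 between groups, over 0.1 in 7 of 15 pairs and at 0.152 for VII with VIII-IX, so the numbers were not shown to pair samples. Without the dimmest genes the median of the retinoid list was -0.00419. The signal of dim genes such as Cyp26a1 limits their differences, which are small on this scale.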

Other observations

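The other genes that set VII sample 2 apart were of several kinds and were chosen after their values were seen. Gpnmb, a lysosomal glycoprotein of macrophages, was at 10.44 on that sample and at most at 7.12 on the other 11 arrays. Lrg1, a secreted glycoprotein, was at 10.98 against at most 8.69, Igfbp3, which binds insulin-like growth factors, at 10.59 against at most 8.50, and Serpina3n, a protease inhibitor, at 11.76 against at most 9.74. Klk1b1 and Klk1b27, kallikreins of the family of Klk1b5, were at 9.369 and 10.832 against at most 6.909 and 8.975. Klk1b5 itself was not higher on VII sample 2 than on VII sample 1. VII samples 1 and 2 correlated at 0.99 over all genes, while the nearest array to VII sample 1 was IV-VI sample 1 at 0.9966.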
